A study of Xenopus laevis with 30 samples.

Results

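The Wnt pathway genes of the African clawed frog Xenopus laevis were followed from cleavage to the feeding tadpole through 89 probe sets of an expression array. A probe set was taken if the platform annotation gave it a single symbol that names a Wnt ligand, a frizzled receptor, a secreted frizzled-related protein, the dickkopfs dkk2 or dkk3, an axin, a dishevelled, an R-spondin, a naked or dapper protein or an sp5 factor, or that is ctnnb1, lef1, tcf7, tcf7l1, tcf7l2, lrp5, lrp6, gsk3a, gsk3b, apc, porcn, wls or znrf3. The rule reads symbols alone, but the families in it were chosen with earlier results of these data known. These 89 of the 32539 probe sets that are no array controls stand for 62 of the 11303 symbols on the array. The symbols make 52 genes once the L and S copies of this allotetraploid frog are joined. In that count wnt2b-b and wnt5a-a stand apart from wnt2b and wnt5a. Of the 89 probe sets, 60 (35 genes) passed a filter on low values and could be tested. At 1 stage or more, both signals of each exceeded the median of their array. The other 29 did not pass this filter.

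The study hybridised 30 arrays, 2 for each of 15 stages from stage 2 to stage 48. Each array held RNA from whole wild-type embryos of mixed sex, pooled from several embryos, and no group carried a treatment or an altered gene. Each stage has 2 biological replications, per the design text, and p-values here measure the spread between such pairs of pools. Stages 2 and 5 are cleavage, 9 is the late blastula, 11 the gastrula, and 13, 17 and 19 the neurula. Tailbud embryos were taken at stages 21, 23, 26, 28 and 31, hatching ones at 37/38, and tadpoles at 43 and 48. The arrays measure RNA of whole embryos, so that fewer cells that express a gene and less of its RNA per cell cannot be told apart.

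Wnt proteins are secreted signals that carry a lipid, added by the enzyme porcn, and leave the cell with the carrier wls. At the receiving cell they bind a frizzled receptor with the co-receptor lrp5 or lrp6, and dishevelled is recruited. The complex of axin, apc and gsk3, which marks beta-catenin (ctnnb1) for destruction, is then held back. Beta-catenin can then act in the nucleus with TCF and LEF factors. In the frog embryo, beta-catenin marks the future dorsal side in cleavage, and zygotic Wnt signals later pattern the mesoderm and the neural axis from ventral and posterior positions.

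Signals are given in the array's linear units, in which the 2% trimmed mean of every array is 500. The array medians ran from 105.6 to 184.1 units, and the 2 arrays of a stage correlated at 0.974 to 0.985 over the tested probe sets. The maternal transcripts h1-8, cpeb1, btg4 and fbxo43 were highest at stage 2, gs17, foxa4 and tbxt at stage 11, the muscle genes myl1 and mylpf and the globin hba2 at stage 48, and hba1.S at stage 43. Stages were compared on the log2 scale with limma, with p-values adjusted by the Benjamini-Hochberg method over all 23403 tested probe sets and called at 0.05. Where the dimmer stage lay under the array median on at least 1 array, the fold is written as "at least", counted from that median. That floor was chosen for convenience, no background having been measured, and the median itself rose from 107.3 units at stage 2 to 183.3 at stage 48. No fold is given where both arrays of the brighter stage lay under their medians. As an alternative, the array's 12 poly-A control probe sets served as the yardstick in place of the trimmed mean. Every log2 change then moved by 0.08 from stage 2 to 9, by -0.25 from 9 to 11 and by 0.26 from 11 to 17. It moved by 0.77 from 17 to 26, by 0.67 from 26 to 37/38 and by 0.09 from 37/38 to 48. The direction of a change smaller than such a shift can thus depend on the scale. The labels do not say how the poly-A controls were added, so that neither scale tells a relative fall from an absolute one.

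On the deposited scale, most Wnt pathway probe sets were highest in the gastrula or neurula, or before it, and lower in the tailbud embryo and tadpole. Highest stages were not counted on the poly-A scale. The poly-A controls had a mean log2 signal of 9.34 at stage 11 and 7.56 at stage 48. Late signals therefore stand higher on that scale. The highest stage mean lay at stages 11 to 17 for 27 of the 60 tested probe sets, at stages 2 to 9 for 13, at 43 to 48 for 13, at 28 to 37/38 for 4 and at 19 to 26 for 3. At stages 11 to 17 that is 45% of these probe sets, beside 19.9% of all tested probe sets, and at stages 2 to 9 it is 21.7% beside 34.8%. Stage 11 alone was the highest stage for 16 of the 60, or 26.7%, beside 7.95% of all. Of all 89 probe sets, 28 lay above the median on both arrays at stage 2, 47 at stage 11, 52 at stage 19 and 36 at stage 48. Among all probe sets of the array the share was 48.9% at stage 11, 48.7% at stage 19 and 48.5% at stage 48. It was no lower than 48.5% at any stage, stage 2 included, so that it stayed nearly level.

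**Figure D1:**
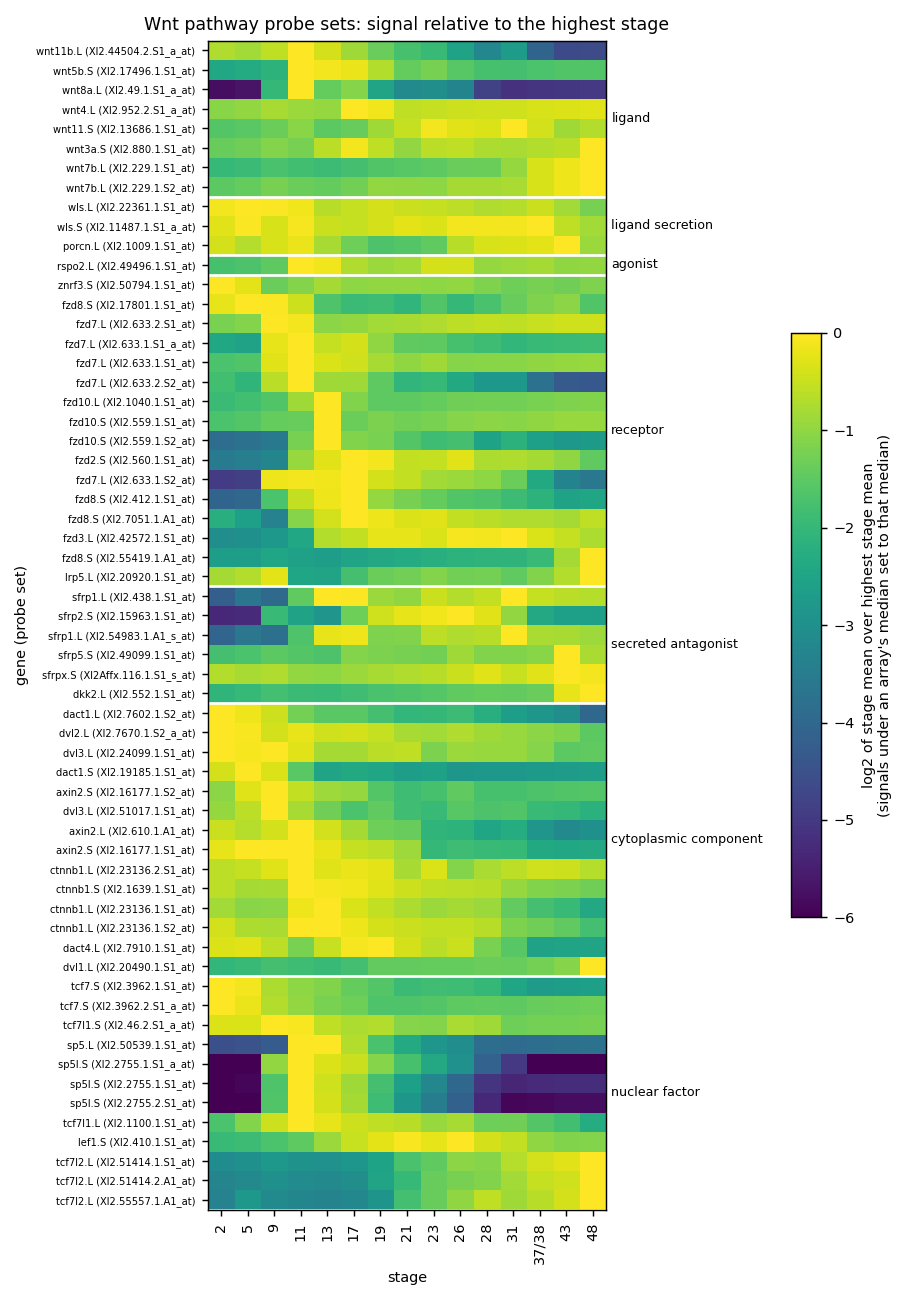
Heat map of the 60 tested Wnt pathway probe sets (rows, grouped by role) over the 15 stages (columns). Colour is the log2 of the stage mean over the highest stage mean of the same probe set, with signals under an array's median set to that median. On the deposited scale, shown here, the brightest cell lies at stages 11 to 17 in 27 rows, and at stages 43 to 48 in 13 rows.

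All 60 probe sets were called over the 15 stages by limma's F test, as were 99.8% of all tested probe sets, so that the test over all stages sets no group of genes apart. From stage 2 to 9, 34 of the 60 were called in either direction, beside 53.3% of all tested probe sets. Of the 60, 24 were called higher, beside 28.8% of all tested probe sets, and 10 lower, beside 24.5%. From stage 9 to 11, 38 were called, beside 60.2%. Of the 60, 29 were higher, beside 28.8% of all, and 9 lower, beside 31.5%. Without the second array of stage 11, 5 and not 9 were called lower. From stage 11 to 17, 43 were called, beside 74%. Of the 60, 19 were higher, beside 35.6%, and 24 lower, beside 38.4%. From stage 17 to 26, 45 were called, beside 66.5%, with 13 higher, beside 37.6%, and 32 lower, beside 29%. From stage 26 to 37/38, 41 were called, beside 58%, with 7 higher, beside 26.4%, and 34 lower, beside 31.7%. From stage 37/38 to 48, 33 were called, beside 61%, with 7 higher, beside 25%, and 26 lower, beside 36%. On the deposited scale, higher calls thus took a larger share of these probe sets than of all probe sets from stage 2 to 11. Lower calls took a larger share on it from stage 17 to 48, and neither difference in share was tested.

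The median log2 change of the 60 was 0.27 from stage 2 to 9 and 0.28 from 9 to 11, beside 0.01 and -0.05 over all tested probe sets. It was -0.18 from stage 11 to 17, -0.41 from 17 to 26, -0.55 from 26 to 37/38 and -0.28 from 37/38 to 48, beside -0.06, 0.11, -0.08 and -0.09 over all. The calls whose brighter stage lay above the median on both arrays numbered 23 of 34, 34 of 38, 35 of 43, 40 of 45, 35 of 41 and 24 of 33, in the order of the intervals. Scaled to the poly-A controls, the split was 21 higher and 14 lower from stage 9 to 11, 20 and 9 from 11 to 17, 28 and 10 from 17 to 26, and 18 and 15 from 26 to 37/38. On that scale 17.2% of all tested probe sets were higher and 36% lower from stage 9 to 11, and 39.1% and 26% from 11 to 17. From stage 17 to 26, 64% were higher and 6.09% lower, and 53.2% were higher and 6.08% lower from 26 to 37/38. In the last interval, 37/38 to 48, 7 of the 60 were higher and 16 lower on that scale, beside 22.7% and 27% of all. Lower calls thus took no larger share of the 60 there than of all tested probe sets. Centred on the array medians, the split from stage 2 to 9 was 22 higher and 15 lower, beside 19.4% and 39.6% of all tested probe sets.

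**Figure D2:**
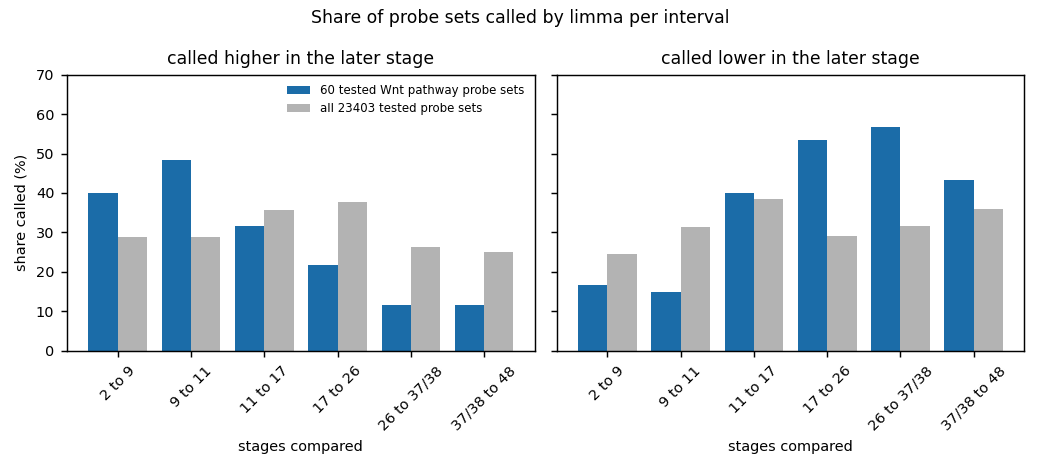
Share of probe sets (percent, bars from 0) called higher (left) and lower (right) in the later stage of 6 intervals by limma at an adjusted p under 0.05, for the 60 tested Wnt pathway probe sets and all 23403 tested probe sets, on the deposited scale. From stage 9 to 11 the blue bar for higher calls (29 of 60) stands above the grey bar (28.8%), and from stage 26 to 37/38 the blue bar for lower calls (34 of 60) stands above the grey bar (31.7%). Scaled to the poly-A controls, more of the 60 were called higher than lower in the intervals from 11 to 37/38. On that scale 39.1% of all tested probe sets were higher and 26% lower from 11 to 17. The shares were 64% and 6.09% from 17 to 26, and 53.2% and 6.08% from 26 to 37/38.

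The Wnt ligands first passed the array median at different stages, and wnt11b.L alone of their 18 probe sets lay above the array median on both arrays at stage 2. The number above the median was 2 at stage 9, 4 at stage 11, 7 at stage 19 and 4 at stage 48. Beside these counts of 18, at least 48.5% of all probe sets lay above it at each of these stages. Of the 8 tested ligand probe sets, 5 were called higher and 0 lower from stage 9 to 11, beside 28.8% and 31.5% of all tested probe sets, and 4 were higher and 2 lower from stage 11 to 17, beside 35.6% and 38.4%. From stage 26 to 37/38, 1 was higher and 3 were lower, beside 26.4% and 31.7%, and each of these splits kept its order on the poly-A scale. From stage 17 to 26 the order was not kept. On the deposited scale 2 were higher and 4 lower, beside 37.6% and 29% of all. On the poly-A scale 3 were higher and 2 lower, beside 64% and 6.09% of all. The other 10 ligand probe sets (wnt1, wnt2b, wnt5a, wnt6 and wnt8b) never lay above the median on both arrays of a stage.

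The gene wnt8a.L encodes the zygotic Wnt signal of the ventral and lateral mesoderm. Its signal (probe set Xl2.49.1.S1_a_at) was 2.61 and 14.6 units on the 2 arrays of stage 2, 1541 and 1384 at stage 9, and 6006 and 5748 at stage 11. Both stage 9 arrays stood far above the median and both stage 2 arrays far below it. It rose at least 13.6-fold from stage 2 to 9 (fitted log2 change 7.89 ± 0.53 SE, adjusted p = 8.1e-10 by limma) and 4.02-fold from stage 9 to 11 (log2 2.01 ± 0.53, adjusted p = 0.0032). At stage 17 the arrays read 2614 and 2927, below both arrays of stage 11, but the log2 change of -1.09 ± 0.53 was not called (adjusted p = 0.073), and it was called with 50 units added to every signal (-1.07, adjusted p = 2e-09) and after quantile normalization (-1.27, adjusted p = 0.025). By stage 26 the signal had come down to 630.3 and 576.2, a fall of 4.59-fold (adjusted p = 0.0014), and by stage 37/38 to 10.8 and 3.67, a fall of at least 3.46-fold (adjusted p = 1.1e-08). The last stage with both arrays above the median was 28.

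The gene wnt11b.L encodes the Wnt ligand stored in the egg on the vegetal side. Its probe set (Xl2.44504.2.S1_a_at) read 2854 and 2717 units at stage 2 and 3057 and 3069 at stage 9, where the change was not called (log2 0.14 ± 0.14, adjusted p = 0.45). It rose 1.49-fold to 4482 and 4647 at stage 11 (adjusted p = 0.0019), a call that the poly-A scale did not keep (log2 0.32, adjusted p = 0.16). From there it fell in every interval. It fell 1.81-fold to stage 17 (2551 and 2489, adjusted p = 2.4e-05), 3.23-fold to stage 26 (971.2 and 627, adjusted p = 3.8e-09), and 2.85-fold to stage 37/38 (310.4 and 241.7, adjusted p = 3.4e-08). The final step to 38.4 and 45.6 at stage 48 was a fall of at least 1.49-fold (adjusted p = 2.2e-12).

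The gene wnt5b.S encodes a ligand mostly known for signalling without beta-catenin. It read 92.4 and 98.7 units at stage 9 and 532.4 and 598 at stage 11, a rise of at least 4.36-fold (adjusted p = 1.4e-06). It stayed in that range at stage 17 (532.9 and 462.1), where no change was called. It then fell 2.58-fold to 200.2 and 184.2 at stage 26 (adjusted p = 0.0014; -0.60 on the log2 poly-A scale, adjusted p = 0.11) and by at least 1.10-fold to 18.4 and 27.7 at stage 37/38 (adjusted p = 1.8e-07). Its arrays lay above the median at 7 stages, from 11 to 26.

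The gene wnt11.S, a relative of wnt11b, behaved otherwise. It read 12 and 7.02 units at stage 9 and 151.8 and 162.4 at stage 11, just above the medians, a rise of at least 1.21-fold (adjusted p = 1.6e-12). At stage 17 it was back at 65.2 and 57.5, a fall of at least 1.25-fold (adjusted p = 1.1e-05), and at stage 26 it had risen at least 2.15-fold to 229.2 and 317.2 (adjusted p = 3.7e-08). The highest stage mean was 327.3 units at stage 31, and the probe set stayed above the median at stage 48 (217.9 and 191.6).

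A pair of neural tube ligands first passed the median at stage 13. The probe set of wnt3a.S, a signal of the dorsal neural tube and tail bud, read 1.85 and 2.50 units at stage 11 and 251.8 and 268.4 at stage 17, a rise of at least 2.17-fold (fitted log2 change 6.92 ± 0.77, adjusted p = 1.1e-07). It was called in no other of the 6 intervals, and its highest stage mean was 282.5 units at stage 48. The probe set of wnt4.L, a ligand of the neural tube and kidney, went from 3.49 and 7.89 units at stage 11 to 217.4 and 231 at stage 17, a rise of at least 1.87-fold (adjusted p = 5.6e-09). It lay above the median at 3 stages, from 13 to 19, and read 101.9 and 69.8 units at stage 48. Before stage 13 both lay at a few units on every array, where a ratio of signals has little meaning.

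The gene wnt7b.L, a ligand of epithelia and neural tissue, was the last of the tested ligands to pass the medians. On both arrays, its probe set Xl2.229.1.S1_at first did so at stage 31, and Xl2.229.1.S2_at at stage 19 (169.1 and 140.5 units). Its first probe set (Xl2.229.1.S1_at) read 77.6 and 108.7 units at stage 26, 332.7 and 328.2 at stage 37/38 and 470.6 and 382.8 at stage 48. The rise from stage 26 to 37/38 was at least 2.02-fold (log2 1.85 ± 0.75, adjusted p = 0.04), and without any 1 of the 4 arrays it was not called (adjusted p = 0.072 to 0.17). The second probe set (Xl2.229.1.S2_at) read 157.6 and 186.6, 255.8 and 216, and 327.2 and 283.8 units at these stages and was not called in either interval. Both had their highest stage mean at stage 48, and over the 15 stage means they correlated at 0.888.

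**Figure D3:**
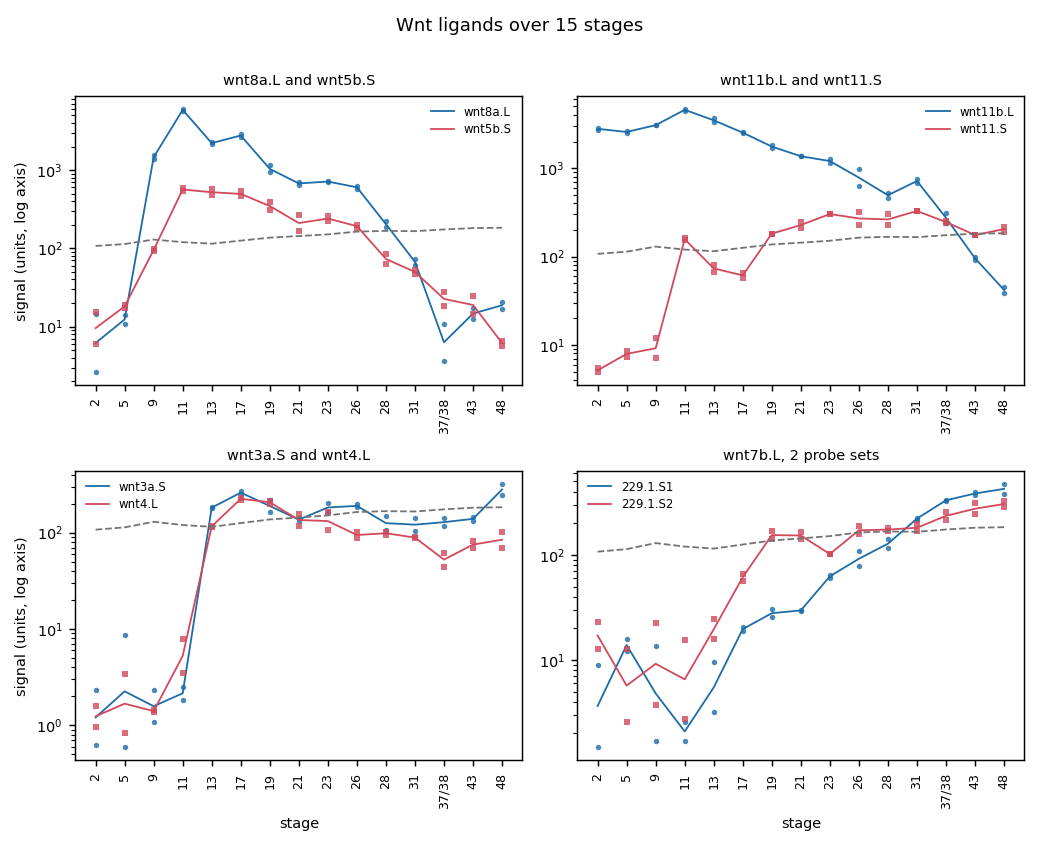
Signal of Wnt ligand probe sets (array units, log axis) at the 15 stages. Points are the 2 arrays of a stage, lines join their geometric means, and the dashed line is the geometric mean of the 2 array medians. The wnt8a.L points reach 6006 and 5748 units at stage 11 and lie below the dashed line from stage 31, and wnt11b.L lies above the line from stage 2 to stage 37/38.

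The ligand secretion genes wls.L and wls.S lay above the median on both arrays at all 15 stages and porcn.L at 14 of them, and their called steps stayed within 2.20-fold. The carrier wls.L read 2351 and 2264 units at stage 2, 2332 and 2231 at stage 11 and 1674 and 1764 at stage 17. It fell 1.33-fold from stage 11 to 17 (adjusted p = 0.00011) and 1.69-fold from 37/38 to 48, to 1069 and 1039 units (adjusted p = 5.9e-08). The S copy rose 1.23-fold from stage 9 to 11 (1379 and 1300 to 1641 and 1643, adjusted p = 0.0024), fell 1.36-fold to stage 17 (1176 and 1246, adjusted p = 3.2e-05), rose 1.34-fold to stage 26 (1581 and 1657, adjusted p = 7.3e-05) and fell 1.77-fold from 37/38 to 48 (1583 and 1898 to 1038 and 927, adjusted p = 1e-08). Of these calls, the rise of wls.S from 9 to 11 and both falls from 11 to 17 were lost on the poly-A scale (adjusted p = 0.84 for that rise, 0.3 for the fall of wls.S and 0.39 for that of wls.L), and the rise from 17 to 26 was lost when arrays were centred on their medians (log2 0.04, adjusted p = 0.7).

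The acyltransferase porcn.L dipped in the neurula. It read 418.3 and 389 units at stage 11 and 177.7 and 188.9 at stage 17, a fall of 2.20-fold (adjusted p = 1.2e-08). It rose 1.59-fold to 277.1 and 305.4 at stage 26 (adjusted p = 2.3e-05) and 1.32-fold to 373.7 and 397.5 at stage 37/38 (adjusted p = 0.0038), and then fell 1.58-fold to 258.6 and 229.7 at stage 48 (adjusted p = 2.9e-05). Its lowest stage mean was 133.1 units at stage 19 and its highest 456.1 at stage 43.

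The only agonist probe set was that of rspo2.L, an R-spondin, which strengthens Wnt signals by keeping receptors at the cell surface. It read 17 and 11.2 units at stage 9 and 360.2 and 361.5 at stage 11, the highest stage, a rise of at least 2.79-fold (log2 4.71 ± 0.16, adjusted p = 1.8e-15). At stage 17 it had fallen 1.64-fold to 217.2 and 223.9 (adjusted p = 0.00048; adjusted p = 0.089 on the poly-A scale). The later steps were small. From stage 26 (260.2 and 280.7) to 37/38 (194.3 and 219) the log2 change was -0.39 ± 0.16 (adjusted p = 0.042), which was not called without any 1 of the 4 arrays (adjusted p = 0.054 to 0.22) and was 0.28 on the poly-A scale (adjusted p = 0.31). To stage 48 (154.1 and 127) it was -0.56 (adjusted p = 0.0047; 0.09 on the poly-A scale), with an adjusted p of 0.052 without the second array of stage 37/38 and 0.071 without the second of stage 48.

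Of the 23 receptor probe sets, 16 could be tested, and more of them were called higher than lower in the first 2 intervals. The 16 hold several probe sets each of fzd7.L, fzd8.S and fzd10, so that these counts are of probe sets and not of separate genes. Of the 16 tested probe sets of frizzled genes, lrp5 and znrf3, 10 were called higher and 3 lower from stage 2 to 9, beside 28.8% and 24.5% of all tested probe sets, and 9 were higher and 2 lower from stage 9 to 11, beside 28.8% and 31.5%. From stage 11 to 17 there were 5 each way, beside 35.6% and 38.4%. Between stages 17 and 26, 3 were higher and 10 lower, beside 37.6% and 29%, from 26 to 37/38, 2 and 10, beside 26.4% and 31.7%, and from 37/38 to 48, 2 and 8, beside 25% and 36%. On the poly-A scale these last 3 splits were 6 higher and 3 lower, 4 and 4, and 2 and 4. Lower calls thus did not outnumber higher ones there from stage 17 to 37/38. The shares over all tested probe sets on that scale were 64% higher and 6.09% lower, 53.2% and 6.08%, and 22.7% and 27%. The 7 receptor probe sets that were not tested belong to fzd1, fzd4, fzd5, fzd6, fzd8.L and lrp6.

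The receptor gene fzd7.L, which the frog embryo uses from the egg through gastrulation, had 5 probe sets. All 5 were called higher at stage 9 than at stage 2. The widest step was that of Xl2.633.1.S2_at, which read 87.1 and 85 units at stage 2 and 3023 and 2989 at stage 9, a rise of at least 28.0-fold (log2 5.13 ± 0.08, adjusted p = 5.1e-21). Probe set Xl2.633.2.S2_at was already at 1086 and 1034 units at stage 2 and rose 2.27-fold to 2475 and 2335 (adjusted p = 9.3e-11). It went on to 3573 and 3889 at stage 11, a further rise of 1.55-fold (adjusted p = 5.6e-07; adjusted p = 0.06 on the poly-A scale). The 2 probe sets therefore gave different answers on how much of this RNA was present before stage 9, and nothing here says which transcripts each one binds.

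From stage 17 to 26 the fzd7.L probe set Xl2.633.2.S2_at fell 2.84-fold (2151 and 2001 to 732.9 and 725.5, adjusted p = 1.8e-12) and Xl2.633.1.S1_a_at fell 2.54-fold (532.5 and 499.7 to 211 and 194.9, adjusted p = 5e-07). In that interval Xl2.633.1.S2_at, the brightest of the 5 at stage 17, went from 3358.7 and 3291.5 units to 1723 and 1811. On the poly-A scale its fall was not called (log2 -0.14, adjusted p = 0.41 by limma). From 26 to 37/38, Xl2.633.1.S2_at fell 2.73-fold (1723 and 1811 to 604 and 695, adjusted p = 4.5e-12). In the same interval Xl2.633.2.S2_at fell 2.63-fold to 291 and 263.2 (adjusted p = 1.2e-11). At stage 48 these 2 probe sets read 277.4 and 272.8, and 170.6 and 141.8 units, after falls of 2.35-fold (adjusted p = 1.3e-11) and at least 1.51-fold (adjusted p = 1.1e-08). Correlations between the courses of the 5 probe sets ran from 0.41 to 0.98 over the 15 stage means.

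The 4 probe sets of fzd8.S, a receptor of the anterior neural plate, went separate ways. Probe set Xl2.7051.1.A1_at fell 2.16-fold from stage 2 (1400 and 1471 units) to stage 9 (675.5 and 655.5, adjusted p = 1e-11), then rose 4.77-fold to stage 11 (3154 and 3200, adjusted p = 1.5e-16) and 2.12-fold to stage 17 (6549 and 6936, adjusted p = 5.1e-12). Probe set Xl2.412.1.S1_at rose at least 5.11-fold from 50 and 48.2 units at stage 2 to 571.2 and 526.5 at stage 9 (adjusted p = 4.9e-19), 2.21-fold to 1247 and 1175 at stage 11 (adjusted p = 1.6e-11) and 1.48-fold to 1753 and 1822 at stage 17 (adjusted p = 4.4e-07). Probe set Xl2.17801.1.S1_at was high before gastrulation instead, with 1044 and 1121 units at stage 9, and fell 2.75-fold from stage 11 (832.4 and 788.5) to stage 17 (304.8 and 285.6, adjusted p = 1.3e-07). Its step from stage 9 to 11 had a log2 change of -0.42 and an adjusted p of 0.036, and was not called without any 1 of the 4 arrays (adjusted p = 0.065 to 0.15), after quantile normalization (0.24) or after median centring (0.13). Probe set Xl2.55419.1.A1_at lay under the medians from stage 9 to 31 and rose at least 3.91-fold from 160 and 188.6 units at stage 37/38 to 693.6 and 732.6 at stage 48 (adjusted p = 2.5e-06).

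From stage 17 to 26 the fzd8.S probe set Xl2.412.1.S1_at fell 3.07-fold to 573.4 and 590.5 units (adjusted p = 1.5e-13), and from 26 to 37/38 the probe set Xl2.17801.1.S1_at rose 1.81-fold from 278.1 and 270.5 to 500.9 and 492.3 (adjusted p = 0.00019). Over the 15 stage means the probe sets Xl2.17801.1.S1_at and Xl2.7051.1.A1_at correlated at -0.91, and they were called in opposite directions in 3 of the 6 intervals, from 9 to 17 and from 26 to 37/38. Probe sets Xl2.412.1.S1_at and Xl2.55419.1.A1_at were called oppositely in 4 intervals. In the interval from 26 to 37/38, where both Xl2.412.1.S1_at (log2 -0.51) and Xl2.7051.1.A1_at (log2 -0.16) were called lower, both changes turned positive on the poly-A scale (0.16, adjusted p = 0.45, and 0.51, adjusted p = 0.0056). The second was also not called without the first array of stage 37/38 or either of stage 26 (adjusted p = 0.09 to 0.21). The fall of Xl2.7051.1.A1_at from stage 17 to 26 (log2 -0.56, adjusted p = 1.9e-07) likewise turned positive there (0.21, adjusted p = 0.22). All 4 carry the same symbol in the platform annotation, and the array values do not tell which of them follow transcripts of this gene.

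The frizzled genes fzd2.S, fzd10 and fzd3.L were first above the median at stage 11. The signal of fzd2.S went from 100.4 and 110.6 units at stage 9 to 610.2 and 669.1 at stage 11, a rise of at least 4.94-fold (adjusted p = 4.4e-14), and 1.91-fold on to 1243 and 1204 at stage 17 (adjusted p = 1.7e-07). It fell 1.56-fold from 753 and 640.1 at stage 37/38 to 441.2 and 447.2 at stage 48 (adjusted p = 3.3e-05). The brighter probe set of fzd10.S rose at least 5.14-fold from 49 and 47.4 to 612.4 and 722.7 units between stages 9 and 11 (adjusted p = 8.3e-14), and peaked at a mean of 1550 units at stage 13. The weaker one rose at least 1.01-fold (8.53 and 14.6 to 126.8 and 135.7, adjusted p = 5e-06). The L copy rose at least 1.73-fold (29.2 and 49.0 to 212.2 and 235.1, adjusted p = 7.1e-09), and it too was highest at stage 13, with a mean of 402.6 units.

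The receptor gene fzd3.L, known for roles in the neural tube and in axon growth, climbed more slowly. It read 137.3 and 202 units at stage 11 and 625.7 and 610.7 at stage 17, a rise of 3.71-fold (adjusted p = 1.1e-09). At stage 26 the arrays read 791.8 and 921.3, a log2 change of 0.47 ± 0.16 (adjusted p = 0.013), which was not called without the second array of stage 17 (adjusted p = 0.058) or of stage 26 (adjusted p = 0.12), or with arrays centred on their medians (log2 0.08, adjusted p = 0.66). The highest stage mean was 900.0 units at stage 31.

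The co-receptor gene lrp5.L dipped at gastrulation. Its signal rose from 372.1 and 365.3 units at stage 2 to 563.2 and 541.4 at stage 9 (log2 0.58 ± 0.11, adjusted p = 0.00023), and then fell at least 4.61-fold to 89.2 and 87.7 at stage 11 (log2 -2.64 ± 0.11, adjusted p = 7.3e-14). Both stage 11 arrays lay under their medians. It rose at least 1.59-fold to 170.6 and 214.2 at stage 17 (adjusted p = 2.9e-08) and 1.40-fold to 269.6 and 267.4 at stage 26 (adjusted p = 0.00086). The last of these was lost after quantile normalization (adjusted p = 0.18) and with arrays centred on their medians (adjusted p = 0.42). A final rise of 2.21-fold took it from 280.1 and 310.6 at stage 37/38 to 627 and 675.4 at stage 48 (adjusted p = 3e-08), its highest stage. The gene znrf3.S, a ubiquitin ligase that removes frizzled receptors from the membrane, fell 2.58-fold from 482.5 and 412.9 at stage 2 to 177 and 168.9 at stage 9 (adjusted p = 2.6e-10) and stayed between stage means of 166.1 and 255.1 units from then on.

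**Figure D4:**
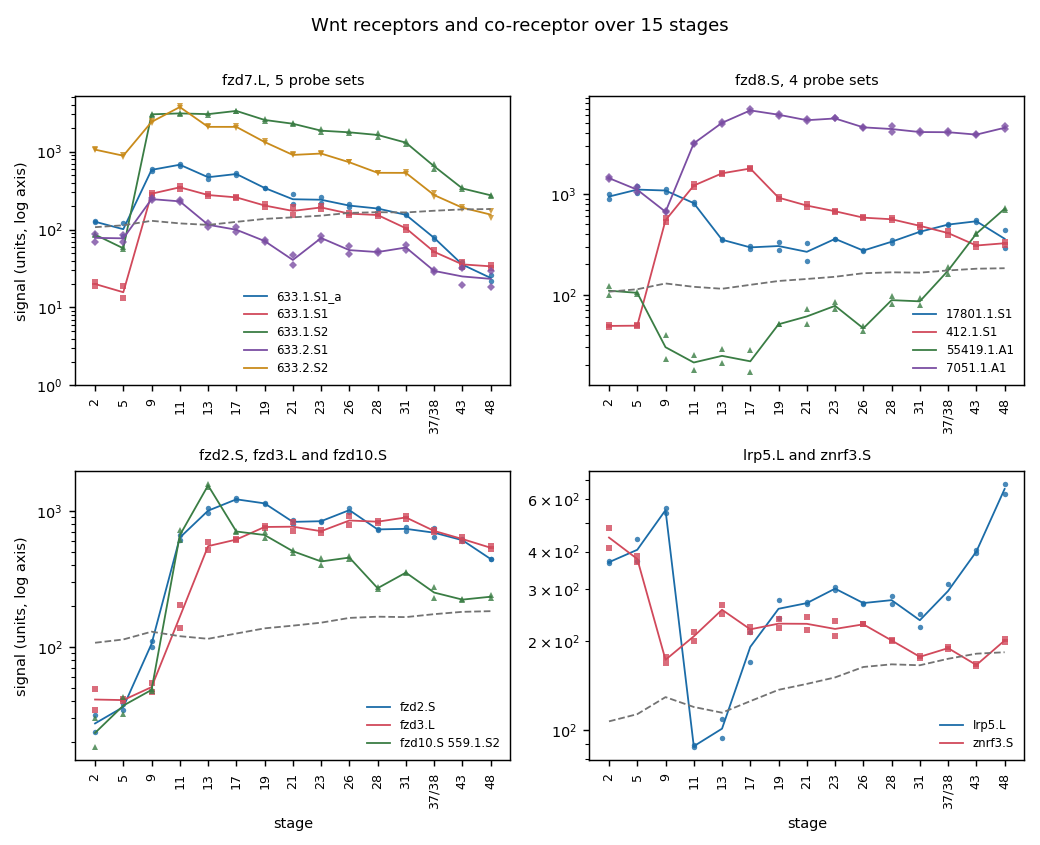
Signal of receptor probe sets (array units, log axis) at the 15 stages. Points are the 2 arrays of a stage, lines join their geometric means, and the dashed line is the geometric mean of the 2 array medians. The 4 probe sets of fzd8.S cross one another, with Xl2.7051.1.A1_at at 6549 and 6936 units and Xl2.55419.1.A1_at under the dashed line at stage 17, and lrp5.L lies under the dashed line at stages 11 and 13.

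Secreted antagonists and their relatives were grouped by the symbols sfrp and dkk, and what each one does here was not tested. Among them, 3 of 6 tested probe sets were called higher and 1 lower from stage 9 to 11, beside 28.8% and 31.5% of all tested probe sets. From stage 11 to 17, 5 were higher and 1 lower, beside 35.6% and 38.4%. Both probe sets of sfrp1.L are among the higher ones in each of these intervals, so that the counts are not of separate genes. From stage 2 to 9, 1 of the 6 was higher and 2 were lower, beside 28.8% and 24.5% of all. Between stages 17 and 26 there were 2 and 2, beside 37.6% and 29%. The splits were 1 and 1 from 26 to 37/38, beside 26.4% and 31.7%, and 1 and 0 from 37/38 to 48, beside 25% and 36%. On the poly-A scale these last 3 splits were 3 and 0, 4 and 1, and 1 and 0. The shares over all there were 64% and 6.09%, 53.2% and 6.08%, and 22.7% and 27%. The gene sfrp2.S, a secreted frizzled-related protein that can bind Wnt ligands, came on at the blastula stage. It read 33 and 17.9 units at stage 2 and 1128 and 1114 at stage 9, a rise of at least 10.4-fold (log2 5.53 ± 0.24, adjusted p = 9.1e-13). At stage 11 it read 777.2 and 696.8, below both stage 9 arrays (log2 -0.61, adjusted p = 0.034), a call that did not hold without any 1 of the 4 arrays (adjusted p = 0.06 to 0.15), after quantile normalization (0.056) or after median centring (0.083). It then rose 2.35-fold to 1724 and 1739 at stage 17 (adjusted p = 0.00013) and 2.49-fold to 4483 and 4159 at stage 26, its highest stage (adjusted p = 8.4e-05). From there it fell 5.22-fold to 816 and 838.8 at stage 37/38 (log2 -2.38 ± 0.24, adjusted p = 1.2e-07).

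The gene sfrp1.L, another protein of the same family, had 2 probe sets whose courses correlated at 0.999. Both already lay above the medians at stage 5 (140.2 and 172.8 units, and 144.3 and 143.9), and both lay under them at stage 9. Probe set Xl2.438.1.S1_at went from 24 and 9.06 units at stage 9 to 682.8 and 734.8 at stage 11, a rise of at least 5.47-fold (adjusted p = 1.2e-12), and 2.70-fold on to 1974 and 1854 at stage 17 (adjusted p = 6.1e-05). Probe set Xl2.54983.1.A1_s_at went from 8.81 and 11.2 to 574.5 and 552.9 units, a rise of at least 4.35-fold (adjusted p = 8.6e-17), and 2.85-fold on to 1555 and 1661 (adjusted p = 3.4e-08). To stage 26 the log2 changes were -0.65 (adjusted p = 0.032) and -0.56 (adjusted p = 0.0039), and both turned positive on the poly-A scale (0.12, adjusted p = 0.73, and 0.21, adjusted p = 0.38). Without the first array of stage 26 neither was called (adjusted p = 0.16 and 0.11), and the first was also lost without either array of stage 17 (adjusted p = 0.12 and 0.073). From stage 13 on, the stage means of the 2 probe sets lay between 973 and 1952 units, and between 791.5 and 1780 units.

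The gene sfrp5.S, a foregut antagonist, rose at least 1.41-fold from 21.3 and 29.7 units at stage 11 to 175.1 and 163.2 at stage 17 (adjusted p = 2.3e-05), and its highest stage mean was 366.4 units at stage 43. The gene dkk2.L, whose protein binds the lrp co-receptors, was under the medians up to stage 37/38 and rose at least 2.58-fold from 98.8 and 91.9 units there to 429.3 and 469.3 at stage 48 (adjusted p = 4.4e-05). Its 4 arrays at stages 43 and 48 lay above their medians, and those of the other 13 stages did not. The sfrpx.S probe set lay above the median on both arrays at 6 stages, with its lowest stage mean of 52.2 units at stage 17 and its highest of 234.6 units at stage 43. Antagonist probe sets not tested were those of dkk3.S, sfrp5.L and the second one of sfrpx.S.

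Of the 20 cytoplasmic probe sets, 14 could be tested, and from stage 11 on more of them were called lower than higher on the deposited scale. The 14 hold several probe sets each of ctnnb1.L, axin2.S and dvl3.L, so that they are not separate genes. Of the 14, 2 were called higher and 4 lower from stage 2 to 9, beside 28.8% and 24.5% of all tested probe sets. From stage 9 to 11 there were 5 and 5, beside 28.8% and 31.5%. In the later intervals 2 and 8, 1 and 10, 1 and 11, and 1 and 9 were called higher and lower. Of all tested probe sets, 35.6%, 37.6%, 26.4% and 25% were called higher there, and 38.4%, 29%, 31.7% and 36% lower. On the poly-A scale these 4 later splits were 2 and 3, 7 and 2, 3 and 2, and 1 and 5, so that the order of the middle pair depends on the scale. The shares over all tested probe sets there were 39.1% higher and 26% lower, 64% and 6.09%, 53.2% and 6.08%, and 22.7% and 27%. The probe sets of axin1, apc, gsk3a and gsk3b never lay above the median on both arrays of a stage, so that only axin2 stands for the destruction complex.

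The beta-catenin gene ctnnb1 rose at gastrulation on both copies. Probe set Xl2.1639.1.S1_at of ctnnb1.S went from 6839 and 7041 units at stage 9 to 11660 and 12187 at stage 11, a rise of 1.72-fold (log2 0.78 ± 0.05, adjusted p = 6.9e-11). For ctnnb1.L, probe set Xl2.23136.1.S2_at rose 1.69-fold (6455 and 6724 to 10816 and 11458, adjusted p = 8.8e-08) and Xl2.23136.1.S1_at rose 1.85-fold (2787 and 2668 to 5135 and 4946, adjusted p = 2.6e-08). The stage 11 arrays lay above the stage 9 arrays in all 3. A further ctnnb1.L probe set, Xl2.23136.2.S1_at, moved less in this interval, from 1445 and 1714.5 units to 1746 and 2140. Before that, Xl2.23136.1.S2_at had fallen 1.28-fold from 7900 and 9046 at stage 2 (adjusted p = 0.00094; adjusted p = 0.11 on the poly-A scale).

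From stage 26 to 37/38 the ctnnb1.L probe set Xl2.23136.1.S1_at fell 1.94-fold (3158 and 3226 to 1712 and 1578, adjusted p = 1.6e-08; log2 -0.29 and adjusted p = 0.11 on the poly-A scale) and 1.52-fold on to 1104 and 1059 at stage 48 (adjusted p = 5.3e-06). Another ctnnb1.L probe set, Xl2.23136.2.S1_at, did the reverse in that interval. It fell 1.94-fold from stage 17 (1572 and 1882) to stage 26 (868 and 910, adjusted p = 2.9e-05; adjusted p = 0.43 on the poly-A scale) and rose 1.60-fold to 1347 and 1497 at stage 37/38 (adjusted p = 0.0012). It correlated with the other 2 at 0.34 and 0.35 over the stage means, while those correlated with each other at 0.991. The ctnnb1.S probe set was called lower from 26 to 37/38 (log2 -0.55, adjusted p = 3e-08), and its change was positive on the poly-A scale (0.12, adjusted p = 0.47).

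The axin2 gene encodes a scaffold of the destruction complex and is itself a known Wnt target. All its probe sets lay above the array medians from stage 2, the first stage sampled, to the gastrula. The axin2.L probe set was highest at stage 11 (2177 and 2470 units) and fell 1.76-fold to 1385 and 1258 at stage 17 (adjusted p = 1.7e-05) and 2.46-fold to 532.8 and 538.3 at stage 26 (adjusted p = 4.8e-08). Its step from stage 9 (1582 and 1898) to 11 had a log2 change of 0.42 (adjusted p = 0.011), which was lost without the second array of stage 11 (adjusted p = 0.1), without the first of stage 9 (0.14) and on the poly-A scale (0.47). For axin2.S, probe set Xl2.16177.1.S1_at fell 2.53-fold from stage 17 (1255 and 1354) to 26 (435 and 607.8, adjusted p = 3.1e-07). Probe set Xl2.16177.1.S2_at rose 2.07-fold from 273.5 and 267.3 at stage 2 to 542.1 and 575.1 at stage 9 (adjusted p = 0.00012), and fell at least 1.15-fold from stage 26 to 37/38 (236.9 and 170 to 89.6 and 64.6, adjusted p = 3.8e-06).

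The 3 dishevelled genes, which link frizzled receptors to the destruction complex, did not share a course. The dvl2.L probe set was highest at stage 2 (3222 and 3182 units) and fell 1.32-fold to 2544 and 2310 at stage 9 (adjusted p = 4.7e-05; adjusted p = 0.14 on the poly-A scale), and its lowest stage mean was 1129 units at stage 48. The dvl3.L probe set Xl2.51017.1.S1_at rose 1.93-fold from 733.4 and 747.8 at stage 2 to 1470 and 1394 at stage 9 (adjusted p = 8.4e-07), and fell 1.72-fold to 859.1 and 802.8 at stage 11 (adjusted p = 6.8e-06) and 1.87-fold to 426.1 and 461 at stage 17 (adjusted p = 7.1e-07). The other dvl3.L probe set, Xl2.24099.1.S1_at, was highest at stage 2 with 604.9 and 502.6 units. It was called lower from stage 37/38 (224.4 and 295.2) to 48 (143.7 and 214.8, adjusted p = 0.0064), and not without the second array of stage 37/38 (adjusted p = 0.13) or the first of stage 48 (adjusted p = 0.2). By contrast, dvl1.L lay under the medians up to stage 17 and rose at least 2.37-fold from 198.7 and 168.1 units at stage 37/38 to 428.5 and 447.9 at stage 48 (adjusted p = 0.0018), its highest stage.

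The dapper genes, whose proteins bind dishevelled, had different highest stages. The dact1.L probe set was highest at stage 2, with 6502 and 7010 units, and was called lower in all 6 intervals. It fell 1.37-fold to stage 9 (4836 and 5029, adjusted p = 4.3e-07), 1.74-fold to stage 11 (2844 and 2837, adjusted p = 5.8e-11) and 2.23-fold from stage 37/38 (919 and 988.9) to 48 (440.3 and 417.1, adjusted p = 1.5e-13). Of its 3 falls in between, the one from stage 17 to 26 (log2 -0.36) turned into a called rise on the poly-A scale (0.41, adjusted p = 0.017), and those from 11 to 17 and from 26 to 37/38 were not called there (adjusted p = 0.92 and 0.12). The S copy fell 2.33-fold from stage 9 (855.1 and 1017) to 11 (413.1 and 387.2, adjusted p = 1.9e-06) and 1.78-fold to 17 (229.9 and 220.1, adjusted p = 0.00014). The dact4.L probe set rose 2.17-fold from 434.5 and 457.7 at stage 11 to 947.4 and 984.1 at stage 17 (adjusted p = 0.0011), was highest at stage 19, and fell at least 4.20-fold from 746.5 and 736.5 at stage 26 to 161.1 and 177.1 at stage 37/38 (adjusted p = 1.9e-06).

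Of the 12 tested nuclear probe sets, 7 were called higher and 1 lower from stage 2 to 9, beside 28.8% and 24.5% of all tested probe sets, and 5 and 1 from 9 to 11, beside 28.8% and 31.5%. The 12 hold several probe sets each of sp5l.S, tcf7l2.L and tcf7.S, so that they are not separate genes. In the later intervals 3 and 4, 3 and 6, 1 and 8, and 2 and 3 were higher and lower. The shares over all tested probe sets were 35.6% and 38.4%, 37.6% and 29%, 26.4% and 31.7%, and 25% and 36%. On the poly-A scale the counts were 3 and 0, 5 and 3, 3 and 5, and 2 and 2. The shares over all there were 39.1% and 26%, 64% and 6.09%, 53.2% and 6.08%, and 22.7% and 27%. The TCF and LEF factors, which bring beta-catenin to its target genes, were highest at different stages. The tcf7.S probe set Xl2.3962.1.S1_at was highest at stage 2 (1157 and 1093 units) and fell 1.66-fold to 647.5 and 706.9 at stage 9 (adjusted p = 0.00022) and at least 1.76-fold from stage 26 (308.9 and 304.4) to 37/38 (126 and 156.7, adjusted p = 1.3e-06). The tcf7l1.L probe set, of the factor that represses Wnt targets in the early embryo, rose 2.36-fold from 1086 and 1150 at stage 2 to 2782 and 2495 at stage 9 (adjusted p = 3.4e-11) and was highest at stage 11 (3624 and 3623). It then fell 1.38-fold to 2624 and 2649 at stage 17 (adjusted p = 1.9e-05; adjusted p = 0.32 on the poly-A scale) and, in the last interval, 1.60-fold from 1200 and 1190 to 711.1 and 785 at stage 48 (adjusted p = 1.7e-07). The S copy fell 1.59-fold from stage 11 (402.7 and 430.5) to 17 (270.7 and 253.2, adjusted p = 4.7e-05; adjusted p = 0.061 on the poly-A scale).

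The lef1.S probe set first passed the medians at stage 11. It read 15.6 and 16.4 units at stage 9 and 140.4 and 156.9 at stage 11, a rise of at least 1.15-fold (log2 3.22 ± 0.65, adjusted p = 0.00036). Its arrays read 280.7 and 306.4 at stage 17 and 400.4 and 438.3 at stage 26, its highest stage, but with its standard error of 0.65 neither step was called.

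The tested tcf7l2.L probe sets were highest late, though Xl2.55557.1.A1_at also had an early signal. It read 166.5 and 163 units at stage 5, above the medians, and 28.1 and 31.3 at stage 11, under them. Probe set Xl2.51414.1.S1_at rose at least 3.47-fold from 76.8 and 103 units at stage 17 to 406.2 and 466.1 at stage 26 (adjusted p = 3.5e-05), Xl2.51414.2.A1_at at least 3.53-fold (92.4 and 111.6 to 445.3 and 439.9, adjusted p = 7.7e-09) and Xl2.55557.1.A1_at at least 4.58-fold (64.7 and 57.8 to 521.1 and 633.3, adjusted p = 4e-12). The stage 26 arrays stood above the stage 17 arrays in all 3. Probe set Xl2.51414.2.A1_at went on rising 1.63-fold to 667 and 778.4 at stage 37/38 (adjusted p = 0.0041). Its 1.43-fold rise from there to 1024 and 1042 at stage 48 (adjusted p = 0.025) was not called without the first array of stage 37/38 (adjusted p = 0.16) or without either of stage 48 (0.074 and 0.088). Probe set Xl2.55557.1.A1_at rose 1.56-fold over that last interval to 1148 and 1141 (adjusted p = 0.0037). All 3 were highest at stage 48, and 2 further tcf7l2.L probe sets were not tested.

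The sp5 genes, which encode zinc finger factors known as direct Wnt targets, came on steeply, and the rise of at least 99.6-fold of one sp5l.S probe set was the highest such bound among the 60 over the 6 intervals. For sp5l.S, probe set Xl2.2755.1.S1_a_at went from 8.91 and 0.25 units at stage 2 to 10222 and 11159 at stage 9, a rise of at least 99.6-fold (adjusted p = 4.6e-09). Probe set Xl2.2755.1.S1_at rose at least 20.2-fold (8.88 and 4.05 to 2197 and 2134, adjusted p = 8.9e-11) and Xl2.2755.2.S1_at at least 30.5-fold (24.4 and 26.1 to 3307 and 3234, adjusted p = 1.3e-07). All 3 were highest at stage 11, and the stage 9 and stage 11 arrays did not overlap in any of them. Xl2.2755.1.S1_at rose a further 3.12-fold to 6809 and 6710 at stage 11 (adjusted p = 0.007). Xl2.2755.2.S1_at read 10219 and 10071 at stage 11, a called log2 change of 1.63. It was not called on the poly-A scale (adjusted p = 0.096 by limma), after quantile normalization (0.064), with no filter (0.059) or with a replicate block (0.051). Nor was it called without any 1 of the 4 arrays (log2 1.62 to 1.65). Xl2.2755.1.S1_a_at read 20314 and 21711 at stage 11, but its log2 change of 0.98 ± 0.93 was not called (adjusted p = 0.39). With 50 units added to every signal it was (log2 0.97, adjusted p = 4.3e-11).

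The sp5l.S signals then went down. From stage 17 to 26 probe set Xl2.2755.1.S1_at fell 8.71-fold (3688 and 3837 to 458.6 and 406.8, adjusted p = 2e-05) and Xl2.2755.2.S1_at fell 10.1-fold (5923 and 5655 to 602.2 and 546.8, adjusted p = 0.00032). Xl2.2755.1.S1_a_at fell 5.61-fold (15154 and 14868 to 2771 and 2585, adjusted p = 0.027), a call that was lost without any 1 of the 4 arrays (adjusted p = 0.076 to 0.089), on the poly-A scale (0.11) and after quantile normalization (0.054). From stage 26 to 37/38 the 3 probe sets fell at least 2.48-fold, 3.29-fold and 15.4-fold in that order (adjusted p = 5.9e-06, 0.00013 and 0.0012), to 35.6 and 35.7, to 35.4 and 49.3, and to 144.5 and 156.6 units, all under the array medians.

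The related sp5.L probe set was later by one step. It read 132.4 and 88.9 units at stage 9, near the medians, and 2366 and 2629 at stage 11, a rise of at least 19.0-fold (log2 4.52 ± 0.23, adjusted p = 1e-12). By stage 17 it was at 1437 and 1650, a fall of 1.62-fold (adjusted p = 0.011) that was lost without the second array of stage 11 (adjusted p = 0.065), without the first of stage 17 (0.075) and on the poly-A scale (0.1). It fell 5.16-fold to 305.2 and 291.8 at stage 26 (adjusted p = 2.3e-08) and at least 1.71-fold to 124.6 and 126.4 at stage 37/38 (adjusted p = 0.00012).

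**Figure D5:**
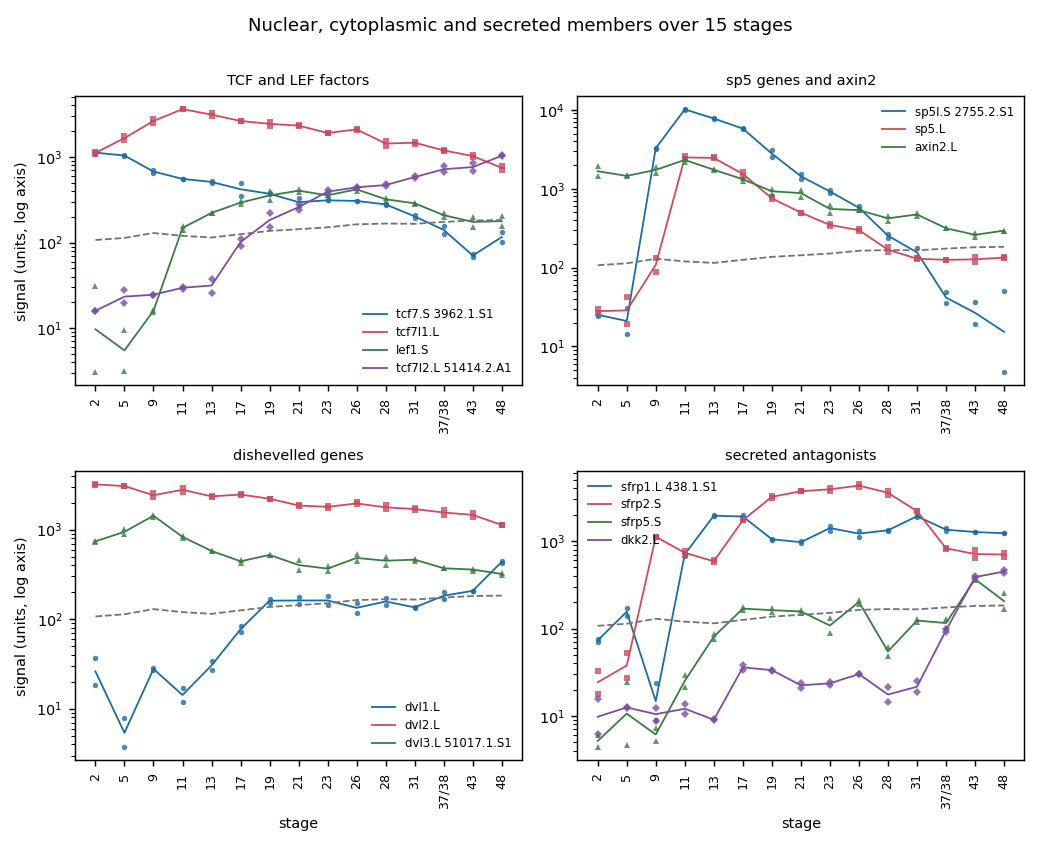
Signal of TCF and LEF factors, sp5 genes with axin2.L, dishevelled genes and secreted antagonists (array units, log axis) at the 15 stages. Points are the 2 arrays of a stage, lines join their geometric means, and the dashed line is the geometric mean of the 2 array medians. The line of tcf7.S comes down from 1157 and 1093 units at stage 2 while that of tcf7l2.L climbs to 1024 and 1042 at stage 48. The dvl1.L line climbs while that of dvl2.L comes down, and dvl3.L rises to 1470 and 1394 units at stage 9 before it comes down.

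In 6 cases a gene had a tested probe set for each of the L and S copies. The ratio of L to S changed over the 15 stages for all 6 by limma's F test, beside 95.8% of all 1722 such pairs on the array. The log2 range of the ratio over the stages was 0.70 for ctnnb1 (adjusted p = 4.8e-05), 0.75 for axin2 (adjusted p = 0.00073), 0.94 for wls (adjusted p = 3.9e-08), 1.39 for dact1 (adjusted p = 9.1e-06), 1.85 for tcf7l1 (adjusted p = 1.1e-08) and 2.03 for fzd10 (adjusted p = 1.8e-05). The median range of the 6 was 1.16, beside 2.36 over all pairs. The courses of the copies correlated at 0.978 for axin2, 0.969 for ctnnb1, 0.957 for both dact1 and fzd10, 0.631 for tcf7l1 and 0.562 for wls, with a median of 0.957 beside 0.820 over all pairs, each over 15 stage means. The ratio was highest at stage 21 and lowest at stage 2 for tcf7l1, whose L copy rose 2.36-fold from stage 2 to 9. The log2 change of the S copy over that interval was 0.31 (adjusted p = 0.036), and it was not called without any 1 of the 4 arrays (adjusted p = 0.059 to 0.17), on the poly-A scale (0.11), after median centring (log2 0.04, adjusted p = 0.8), after quantile normalization (log2 0.16, adjusted p = 0.31) or with array weights (adjusted p = 0.084). Whether a probe set of one copy also binds transcripts of the other was not tested.

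Genes of the pathway outside these families were counted for comparison. Of 52 other components (among them cer1, frzb, ror2 and casein kinases), 33 genes with 64 probe sets were tested. In the first interval, stage 2 to 9, 14 of the 64 were called higher and 20 lower, beside 28.8% and 24.5% of all tested probe sets (median log2 change -0.08 beside 0.01). From stage 9 to 11 there were 22 and 19 (beside 28.8% and 31.5%), from 11 to 17, 13 and 39 (35.6% and 38.4%), from 17 to 26, 13 and 33 (37.6% and 29%), from 26 to 37/38, 8 and 31 (26.4% and 31.7%), and from 37/38 to 48, 3 and 36 (25% and 36%). Of 25 genes known as Wnt targets in the frog embryo, 16 with 37 probe sets were tested. Of the 37, 20 were called higher and 7 lower from stage 2 to 9 (median log2 change 0.95 beside 0.01 over all), 31 and 3 from 9 to 11 (2.80 beside -0.05), and 21 and 5 from 11 to 17 (0.79 beside -0.06), where the median of the 60 was -0.18. Between stages 17 and 26, 0 were higher and 26 lower (median -0.90 beside 0.11), from 26 to 37/38, 1 and 30 (-1.10 beside -0.08), and from 37/38 to 48, 9 and 13 (-0.53 beside -0.09). The shares over all tested probe sets are those given for the other components. Those targets include mesoderm genes such as tbxt, msgn1 and the cdx genes, which are also known to answer to other signals, and their counts hold no measurement of Wnt signalling itself. These later falls are those of the deposited scale, and the lists were not counted on the poly-A scale.

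Both frzb.S and cer1.S, antagonists of the organizer, were higher at stage 11 than before and after. The frzb.S probe set, of a secreted frizzled-related antagonist, read 5.92 and 6.58 units at stage 2, 500.7 and 445.2 at stage 9, 3239 and 3046.9 at stage 11 and 316.8 and 301.1 at stage 17, with a log2 change of 2.73 ± 0.19 from stage 9 to 11 (adjusted p = 1.6e-10) and -3.35 ± 0.19 from 11 to 17 (adjusted p = 4.5e-12). A cer1.S probe set (Xl2.368.1.S1_at), of a factor that binds Wnt, Nodal and BMP proteins, read 241.6 and 242.7 at stage 9, 6788 and 7757 at stage 11 and 738.1 and 737.8 at stage 17 (log2 4.91 ± 0.60, adjusted p = 5.6e-07, and -3.30 ± 0.60, adjusted p = 5.9e-05). These genes were picked out after their values had been seen, so that their adjusted p-values are no test of the course they were picked for. The other probe sets of that list are described by counts and medians only.

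The 29 probe sets that were not tested stayed dim at all 15 stages. They hold 10 of the 18 ligand probe sets, 6 of the 20 cytoplasmic, 7 of the 23 receptor, 3 of the 15 nuclear and 3 of the 9 antagonist probe sets. The highest stage mean among them was 129.7 units, for sfrp5.L at stage 43, and the lowest was 7.78, for a tcf7l2.L probe set. A dim probe set on this array does not show that the gene is silent. The wnt8b.S probe set, of a ligand of the forebrain, had its highest stage mean, 50.7 units, at stage 21, and that of wnt1.L, of the midbrain and dorsal neural tube, had 26.6 units at stage 17.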

How the data were processed

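Total RNA of pooled whole embryos was labelled with biotin by one-cycle labelling and hybridised to the Affymetrix Xenopus laevis Genome 2.0 array, per the labels' protocols and the design text. The deposited values are linear MAS5 signal intensities, which the submitters' processing notes credit to MAS5 (version not given in the sources used here). Over these intensities, the 2% trimmed mean of every array is 500, 1 column stands for 1 array, and every value is above 0.

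The array holds 32635 probe sets, 96 of them controls. Of the others, 15495 have 1 symbol in the platform annotation, which can be old, and 85 of the 89 Wnt pathway probe sets were found in the RefSeq table by Entrez identifier. Signals were put on the log2 scale, and the 23403 probe sets with both arrays of some stage above their own medians were fitted with limma 3.58.1 in R 4.3.3 (a mean per stage, trend and robust settings, 15 residual degrees of freedom). Stages were tested by an F test and over 6 successive intervals, with Benjamini-Hochberg adjustment over all fitted probe sets at 0.05. The ratio of the L to the S copy was tested in the same way, on the brightest tested probe set of each copy. The limma steps were tested on simulated data. With 2 arrays a stage, their number limits the precision of each value.

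The members and the other gene lists were chosen with earlier results of these data known. Named with values were, for each role and interval, up to 3 called rises and 3 called falls with the largest fitted change with arrays that stood apart and a brighter stage above its medians. Also named were the 3 widest ranges of each role, the L and S pairs, probe sets of a gene called in opposite directions, and other members by their peak stage. Alternatives were quantile normalization, median centring, scaling to the poly-A controls, 2 other filters, 50 units added before the log2, plain moderation, array weights, a replicate block, no _s_at and _x_at probe sets, and each array left out in turn. Over 105 pairs of stages, arrays with the same replicate number deviated together with correlations from -0.0594 to 0.0412, none above 0.1, so that the numbers were not taken as pairs.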

Additional observations from a re-analysis of the deposited data

How the results depend on the processing

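Scaling was the choice that changed directions. On the poly-A scale 9 of the 162 named changes turned positive: from stage 17 to 26, those of dact1.L (0.41), fzd8.S Xl2.7051.1.A1_at (0.21), fzd10.S Xl2.559.1.S2_at (0.13) and sfrp1.L (0.12 for Xl2.438.1.S1_at and 0.21 for Xl2.54983.1.A1_s_at), and from 26 to 37/38, those of fzd8.S (0.51 for Xl2.7051.1.A1_at and 0.16 for Xl2.412.1.S1_at), rspo2.L (0.28) and ctnnb1.S (0.12). A further 29 lost their call there, and the other 124 stayed as they were, called or not. The cause of the difference between the scales was not tested. With a filter at the 75th percentile 38 probe sets were left, of which 38 were called over the stages and 28 from stage 11 to 17, fewer because fewer were tested. Leaving out 1 array of the compared stages gave 31 to 37 called from stage 2 to 9, 30 to 36 from 9 to 11, 38 to 42 from 11 to 17, 35 to 39 from 17 to 26, 34 to 38 from 26 to 37/38 and 26 to 27 from 37/38 to 48. It cost a call in 52 of the repeats for single changes and altered nothing in 596, which include some changes not called to begin with. Median centring cost 6 calls, quantile normalization 6, no filter 2, and array weights and plain moderation 1 each. With 50 units added before the log2, the higher calls rose from 7 to 11 from stage 26 to 37/38 and from 7 to 13 from 37/38 to 48. The arrays share only a replicate number. With the replicate block 36, 39, 44, 45, 41 and 34 probe sets were called in the 6 intervals and 60 over all stages, and of the named changes it altered 1 call, sp5l.S Xl2.2755.2.S1_at from stage 9 to 11 (1.63, adjusted p = 0.051 by limma). All other alternatives that were run kept the counts of calls in either direction within 1.5 times. Dim probe sets limit what could be seen: of 33 to 45 calls in an interval, 4 to 9 had neither stage above the medians on both arrays.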
